A study of Mus musculus with 6 samples.

Results

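The inflammasome and pyroptosis genes examined here were Nlrp3, Aim2, Nlrc4, Mefv, Pycard, Casp1, Casp4 and Gsdmd, 8 of the 24062 RefSeq genes in the count tables, chosen by their symbols. All 8 were listed once. They were measured by RNA-seq in RAW264.7 cells, an established mouse macrophage line, in 6 conditions with 1 library each. M0 macrophages received no polarizing agent. For M1, LPS at 100 ng/mL was combined with IFN-γ at 20 ng/mL over 24 h. For M2, cells were kept 24 h with IL-4 at 20 ng/mL. RM0, RM1 and RM2 macrophages were in the same 3 states and received 10 Gy of gamma radiation, followed by 24 h of incubation. Whether the non-irradiated cells were also kept for these 24 h is not given in the sources used here, so irradiation and time in culture cannot be told apart. Each library came from RNA pooled over 5 wells of this single line, so no spread between wells was measured.

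An inflammasome is a cytosolic complex that activates caspase-1. Sensor proteins detect a danger signal: NLRP3 responds to membrane damage and ion fluxes, AIM2 to cytosolic DNA, NLRC4 to bacterial flagellin and secretion system proteins bound by NAIP proteins, and pyrin, encoded by Mefv, to bacterial toxins that disturb the host cell. The adaptor ASC, encoded by Pycard, links NLRP3, AIM2 and pyrin to caspase-1, while NLRC4 can also bind caspase-1 directly. Caspase-1 matures IL-1β and IL-18 and cleaves gasdermin D, whose fragment forms pores in the cell membrane. Mouse caspase-11, encoded by Casp4, senses cytosolic LPS and cleaves gasdermin D without ASC. LPS is widely used to prime macrophages, because many of these genes are inducible, and RAW264.7 cells are known for lacking ASC.

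The bases before the transcription start are shown for 3 genes on which the results below turn, Casp4 and Casp1, which were higher in M1 macrophages, and Nlrp3, which was lower. The sequences are those of RefSeq on GRCm38.p6, 250 bases each, read 5′ to 3′ on the strand of the gene, which is the plus strand for all 3. They lie at chr9:5308610-5308859 for Casp4, chr9:5298267-5298516 for Casp1 and chr11:59542436-59542685 for Nlrp3, and end directly before the start listed in the count tables. Capitals mark matches on either strand to a core of NF-κB sites, GGG and TTTCC with any 2 bases between.
Casp4: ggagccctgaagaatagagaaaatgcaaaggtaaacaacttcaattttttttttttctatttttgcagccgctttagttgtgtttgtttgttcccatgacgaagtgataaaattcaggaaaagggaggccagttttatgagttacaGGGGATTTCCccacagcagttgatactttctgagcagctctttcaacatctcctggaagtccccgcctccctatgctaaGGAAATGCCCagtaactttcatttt
Casp1: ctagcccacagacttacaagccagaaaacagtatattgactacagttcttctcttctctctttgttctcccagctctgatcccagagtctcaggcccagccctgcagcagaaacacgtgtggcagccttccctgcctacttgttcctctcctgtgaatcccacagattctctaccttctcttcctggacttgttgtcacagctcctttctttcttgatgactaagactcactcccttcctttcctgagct
Nlrp3: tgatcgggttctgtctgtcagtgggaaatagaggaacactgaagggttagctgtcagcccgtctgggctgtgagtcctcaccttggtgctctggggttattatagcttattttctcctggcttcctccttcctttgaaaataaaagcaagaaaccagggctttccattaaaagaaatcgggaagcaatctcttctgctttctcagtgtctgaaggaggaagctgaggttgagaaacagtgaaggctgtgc
The Casp4 window held 2 such matches, at -104 to -95 and -25 to -16 counted from the start, and the Casp1 and Nlrp3 windows held 0. Of all 32851 RefSeq windows of this length, 1.41% held at least 1 match. The GAS core TTCNNNGAA was found in 7.02% of all windows and the ISRE core, GAAA and GAAA with any 2 bases between, in 2.98%, and neither was found in the windows of these 3 genes. The windows of Pycard, Aim2, Nlrc4 and Mefv held none of the 3 motifs. No window was available for Gsdmd, which was also higher in M1 macrophages, so it was not searched. A match is a description of the letters and not evidence of binding.

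The libraries held 17894937 to 18870516 counted reads, and 8137 of the genes, 33.8%, had 0 counts in all of them. CPM is the count of a gene scaled to a common library size. With unscaled library totals, 3 counts correspond to 0.159 to 0.168 CPM. The CPM levels given below use library sizes scaled with the TMM method, where 3 counts in M1 correspond to 0.200 CPM. The labels name bone marrow as the tissue and RAW264.7 as the line. All 6 macrophage markers examined, Adgre1, Csf1r, Cd68, Itgam, Lyz2 and Spi1, had at least 1623 counts in every library. Of 4 T cell and 4 B cell markers, none exceeded 4 counts. The neutrophil markers Elane and Mpo stayed at 0 to 3 counts and S100a9 at 1 to 19, whereas S100a8, which macrophages also express, brought the summed level of the 4 neutrophil markers found to 2165 and 3099 CPM in M1 and RM1, against 140 to 342 in the other 4 libraries. The fibroblast marker Col1a2 was at 0 and Col1a1 at 0 to 11 counts, and 113 to 726 counts of Dcn set the summed level of this list, 42.1 and 44.1 CPM in M1 and RM1 and 5.91 to 9.32 elsewhere.

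Pycard (NM_023258, chromosome 7 of GRCm38, 127991373 to 127993867, minus strand) had 0 counts in each of M0, M1, M2, RM0, RM1 and RM2. The gene was thus not detected in any of the 6 conditions, neither after LPS and IFN-γ nor after irradiation, and no fold change can be given. A count of 0 allows up to 3 counts per library. Genes around it were looked at too, leaving out those closer than 10 kb. Of the 7 genes listed 10 to 100 kb away, 5 had at least 10 counts in every library, among them Bckdk, a mitochondrial kinase gene, with 692 to 1202 counts, and Itgam, which encodes CD11b, with 24525 to 31782. The nearest of the 7, Trim72 at 10511 bases, held only 0 to 3 counts, and Prss8 held 0 to 4. The listed interval covered 60.0% of the gene annotated in GENCODE M21. Of the 100-base windows of its longest transcript, 10.4% were shared with another annotated gene, an overlapping transcript on the opposite strand.

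**Figure D1:**
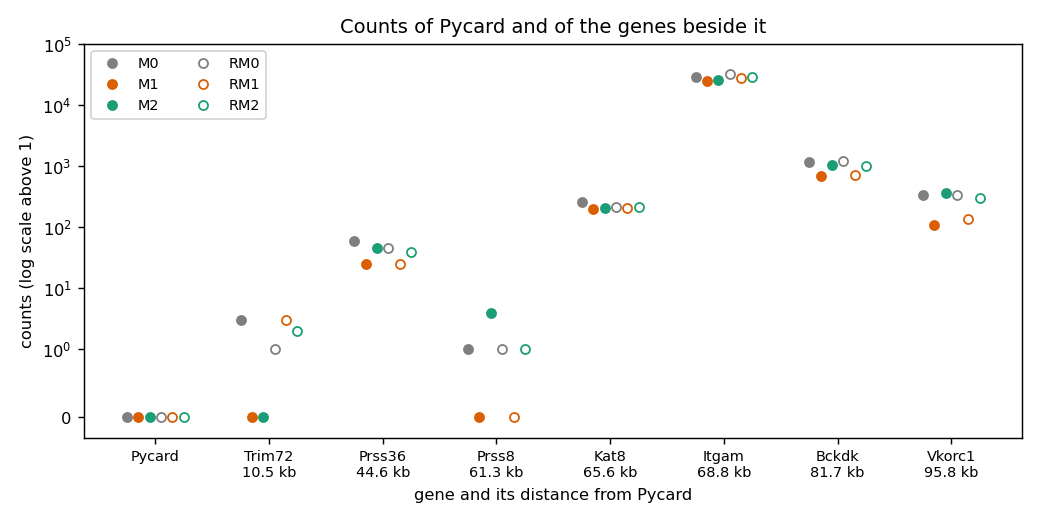
Counts of Pycard and of the 7 genes 10 to 100 kb from it in each of the 6 libraries, ordered by distance from Pycard, with counts on the y axis (log scale above 1) and open symbols for 10 Gy. Pycard is at 0 in all 6 libraries and Trim72 and Prss8 stay at 4 counts or fewer, while Bckdk stays at 692 counts or more and Itgam at 24525 or more.

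Mefv (NM_001161790, chromosome 16, 3707215 to 3718124, minus strand), the pyrin gene, was also at the limit of detection. Reads of Mefv numbered 1 for M0, 0 for M1 and 0 for M2, then 1 for RM0, 2 for RM1 and 0 for RM2. At 3 counts or fewer in every library, no change of Mefv was detectable at this depth. The remaining 6 genes passed the minimum of 10 counts in all 6 libraries. Divided by transcript length and by the library size scaled with the TMM method, Gsdmd was the most abundant in M0 at 47.9 CPM per kilobase, followed by Casp1 at 27.7, Aim2 at 26.5, Casp4 at 26.3, Nlrp3 at 23.5 and Nlrc4 at 1.03. In M1 the order of these length-corrected levels was Gsdmd at 113, Casp1 at 91.2, Casp4 at 75.5, Aim2 at 26.5, Nlrp3 at 4.64 and Nlrc4 at 0.874. In M0 the 4 genes between 23.5 and 27.7 lay close together, and in M1 the effector genes stood apart from all sensor genes.

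**Figure D2:**
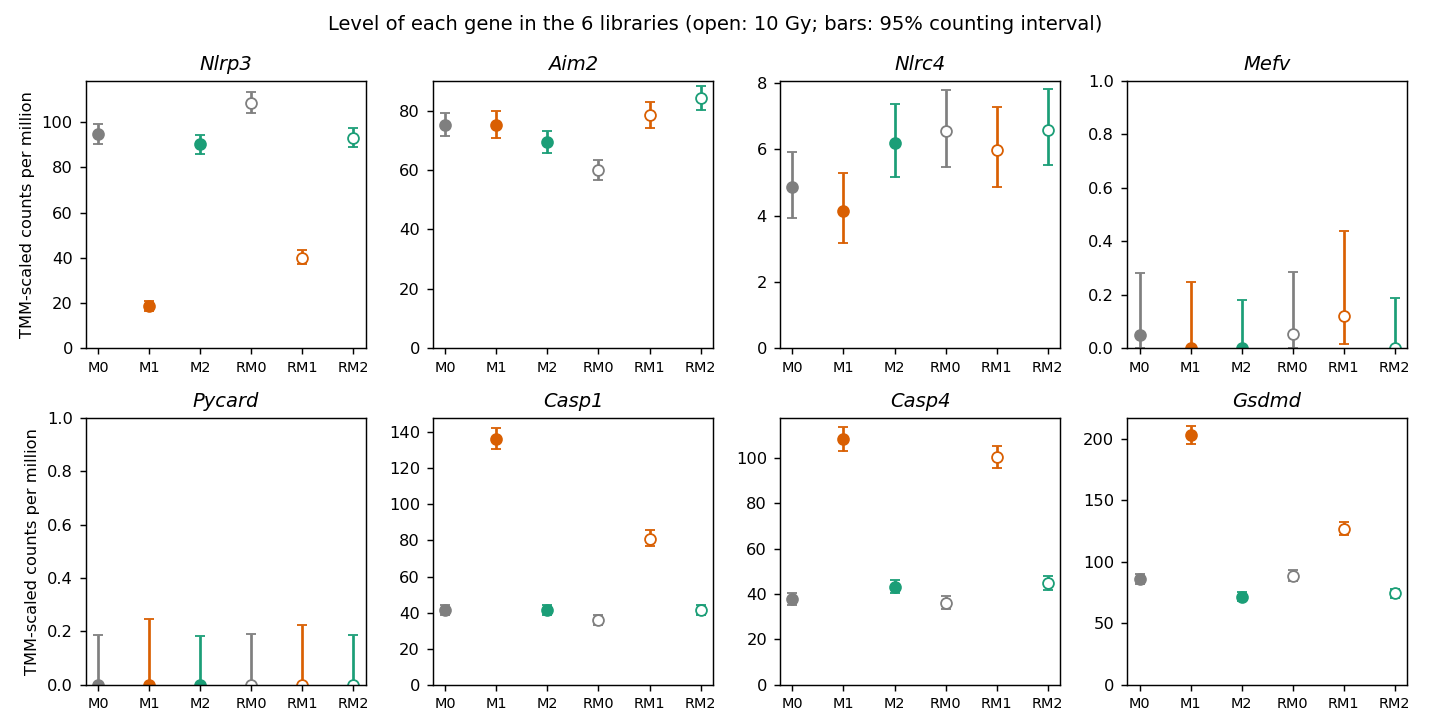
TMM-scaled CPM (y axis, from 0) of each gene in the 6 libraries (x axis), with filled symbols for non-irradiated and open symbols for irradiated cells and bars for exact 95% Poisson intervals, which cover counting error only. Casp1, Casp4 and Gsdmd are highest in M1 and RM1 and Nlrp3 is lowest there, while Pycard and Mefv lie at or near 0 throughout.

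Nlrp3 (NM_145827, chromosome 11, 59542686 to 59566956, plus strand) differed more between libraries than the sensor genes Aim2 and Nlrc4, with a ratio of 5.82 between its highest and lowest scaled levels against 1.41 and 1.60. Without irradiation, M0 held 1871 reads of Nlrp3, M1 280 and M2 1832, and with it RM0 held 2119, RM1 663 and RM2 1849. The libraries that received LPS and IFN-γ were lower than all others, and RM1 lay between M1 and the rest. In M1 against M0, Nlrp3 was 5.04-fold lower, a log2 fold change of -2.33 (95% counting interval -2.53 to -2.16). Among irradiated cells, RM1 against RM0, it was 2.71-fold lower, with a log2 fold change of -1.44 (-1.57 to -1.31). Between RM1 and M1 it was 2.14-fold higher, at 1.10 (0.899 to 1.31), whereas RM0 against M0 gave 0.20 (0.109 to 0.29) and RM2 against M2 gave 0.05 (-0.0471 to 0.141). The difference between the first of these and the other two was 0.90 and 1.05 on the log2 scale, with counting errors of 0.113 each (SE). Counting intervals do not contain the spread between cultures, which was not measured. M1 against M0 and RM1 against M1 share the single M1 library, so a deviation of that library would move them in opposite directions. This holds for the genes below as well.

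Aim2 (NM_001013779, chromosome 1, 173420604 to 173466036, plus strand) differed less than 2-fold in every comparison. Reads of Aim2 numbered 1486 for M0, 1128 for M1 and 1410 for M2, then 1168 for RM0, 1298 for RM1 and 1671 for RM2. After scaling, RM2 was highest at 84.2 CPM and RM0 lowest at 59.9, with M0 at 75.1 and M1 at 75.2 next to each other. M1 and M0 differed by a log2 fold change of 0.00 (-0.111 to 0.114), or -0.41 with library totals, which is 0.05 relative to the median of all genes. RM1 was above RM0, at 0.39 (0.275 to 0.505). The value was -0.33 in RM0 against M0, 0.06 in RM1 against M1 and 0.28 in RM2 against M2. The listed interval covered 39.5% of the annotated Aim2 gene.

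Nlrc4 (NM_001033367, chromosome 17, 74426295 to 74459108, minus strand) was detected at a low level in every library. Without irradiation, M0 held 96 reads of Nlrc4, M1 62 and M2 126, and with it RM0 held 128, RM1 99 and RM2 131. The scaled level was lowest in M1 at 4.13 CPM and highest in RM2 at 6.60. Its log2 fold change was -0.23 (-0.716 to 0.244) in M1 against M0, 0.43 (0.0421 to 0.832) in RM0 against M0 and 0.52 (0.0616 to 1.02) in RM1 against M1. None of the 7 comparisons of libraries reached 2-fold. An annotated pseudogene on the same strand overlaps the gene.

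Casp1 (NM_009807, chromosome 9, 5298517 to 5307281, plus strand) encodes the protease at which canonical inflammasomes converge. Reads of Casp1 numbered 821 for M0, 2047 for M1 and 839 for M2, then 696 for RM0, 1341 for RM1 and 818 for RM2. Both libraries with LPS and IFN-γ were above the other 4, and RM1 was below M1. Casp1 was 3.28-fold higher in M1 than in M0, at 1.71 (1.60 to 1.84) on the log2 scale, and 2.27-fold higher in RM1 than in RM0, at 1.18 (1.05 to 1.32). It was 1.68-fold lower in RM1 than in M1, at -0.75 (-0.852 to -0.651), against -0.22 (-0.366 to -0.0707) for RM0 against M0 and 0.00 (-0.144 to 0.138) for RM2 against M2.

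Casp4 (NM_007609, chromosome 9, 5308860 to 5336791, plus strand), the caspase-11 gene, begins next to Casp1 on the same strand. Without irradiation, M0 held 747 reads of Casp4, M1 1624 and M2 877, and with it RM0 held 707, RM1 1662 and RM2 889. Again M1 and RM1 were the highest, but here RM1 stayed near M1. Casp4 was 2.86-fold higher in M1 than in M0 (log2 fold change 1.52, 1.39 to 1.65) and 2.77-fold higher in RM1 than in RM0 (1.47, 1.34 to 1.60). RM1 differed from M1 by -0.11 (-0.207 to -0.00825). None of the 100-base windows of the Casp1 and Casp4 transcripts was shared with another gene, so the neighbours could be told apart by their reads.

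Gsdmd (NM_026960, chromosome 15, 75862339 to 75867404, plus strand), the gene of the pore-forming substrate, held 1696 reads for M0, 3041 for M1 and 1453 for M2, and after irradiation 1732 for RM0, 2102 for RM1 and 1474 for RM2. M1 was the highest, followed by RM1. Gsdmd was 2.36-fold higher in M1 than in M0, at 1.24 (1.16 to 1.33), and 1.43-fold higher in RM1 than in RM0, at 0.52 (0.425 to 0.61). It was 1.59-fold lower in RM1 than in M1, at -0.67 (-0.755 to -0.593), against 0.05 in both other states. On the log2 scale, the change from M1 to RM1 differed from that between M0 and RM0 by -0.72 for Gsdmd, -0.53 for Casp1 and -0.05 for Casp4, with counting errors of 0.0641, 0.09 and 0.0909 (SE).

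**Figure D3:**
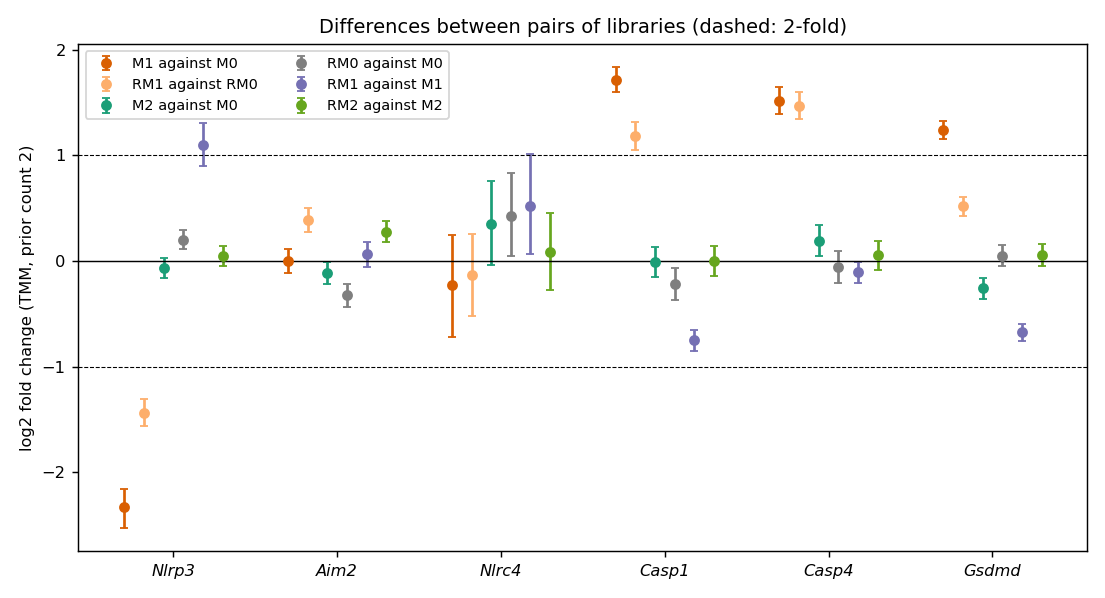
log2 fold changes (y axis, TMM scaling, prior count of 2) of the 6 genes with at least 10 counts in 6 comparisons of 2 libraries, with 95% counting intervals as bars and 2-fold as dashed lines. Beyond 2-fold lie Nlrp3, Casp1 and Casp4 in both comparisons of LPS and IFN-γ, Gsdmd in M1 against M0, and Nlrp3 in RM1 against M1.

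A gene was called different between 2 libraries at 2-fold or more with at least 10 counts in 1 of them. This rule compares libraries and carries no p-value. M1 against M0 and RM1 against M1 share the M1 library. A gene under 10 counts in 1 of the 2 libraries could be called in 1 direction only. The 8 genes were chosen with earlier results of these data known, so shares of all genes are given for description. In M1 against M0, 22.7% of all 11778 genes were called. Here 3 of the 6 genes that could be called were higher, against 8.98% of all genes, and 1 was lower, against 13.7%. The median log2 fold change of the 6 was 0.62 beside -0.05 over all genes. With scaling by library totals, the median of all genes was -0.46, and the share of higher among all called genes went from 39.6% to 16.8%. On that scale Gsdmd was at 0.82 and no longer called, or 1.29 relative to the median. In RM1 against RM0, 2 genes were higher, against 6.26% of all genes, and 1 lower, against 7.84%. Casp1 was at 0.93 there with library totals and not called, or 1.18 relative to the median of all genes, which stood at -0.25, with 25.0% of calls higher instead of 44.4%. In RM1 against M1, Nlrp3 was the 1 gene higher, against 3.23% of all genes, and 0 were lower, against 2.09%, with 5.32% called in either direction. With library totals the median of all genes was 0.13 there instead of 0.02, and Nlrp3 was at 1.21, or 1.08 relative to it. In M2 against M0, RM0 against M0, RM2 against M2 and RM2 against RM0, 0 of the 6 genes were called, beside 1.44%, 1.54%, 1.97% and 2.60% of all genes in either direction. With library totals 39.7% instead of 52.6% of the calls in RM2 against M2 were higher. The shares of all genes higher and lower were 0.995% and 0.442% for M2 against M0, 0.727% and 0.813% for RM0 against M0, 1.03% and 0.932% for RM2 against M2, and 1.63% and 0.97% for RM2 against RM0.

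The M1 and RM1 libraries were then compared with M0 and RM0 in 1 fit of all 6 libraries, with terms for polarization and irradiation, by edgeR's quasi-likelihood test with Benjamini-Hochberg adjustment over 11574 genes. Here irradiated and non-irradiated cells stand in for replicates, which assumes the same effect in both. The log2 fold changes without and with irradiation were -2.33 and -1.44 for Nlrp3, 1.71 and 1.18 for Casp1 and 1.24 and 0.52 for Gsdmd. For Casp4 they were 1.52 and 1.47. The effects from the fit lie between these values, which were unlike for Nlrp3, Casp1 and Gsdmd. Casp4 rose by 1.51 (SE 0.124, adjusted p = 8.69e-06), Casp1 by 1.48 (SE 0.173, adjusted p = 8.03e-05) and Gsdmd by 0.91 (SE 0.176, adjusted p = 0.00186) on the log2 scale, each higher in M1 and RM1 than in M0 and RM0. Nlrp3 fell by 1.83 (SE 0.208, adjusted p = 6.68e-05) and was lower in both. These 3 genes higher and 1 lower stand beside 23.3% of all tested genes that were higher and 24.3% that were lower. Nlrc4, at -0.17 (SE 0.22, adjusted p = 0.561), and Aim2, at 0.20 (SE 0.149, adjusted p = 0.299), did not pass. With library totals Gsdmd was at 0.55 (adjusted p = 0.0196) and passed. Gsdmd was at 0.51 without the M1 library and Aim2 at 0.45 without M0. These 2 fits leave 1 library in a compared state, so only the effect sizes are given. The S100a8 and Dcn levels given above moved with the same libraries, and their part in these differences was not tested.

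IL-4 gave no call among these genes. In the same fit, 0 of the 6 genes passed for M2 and RM2 against M0 and RM0 by edgeR's quasi-likelihood test, 0 had an unadjusted p under 0.05, and DESeq2 also called 0. Over all genes 0.19% passed, 0.156% higher and 0.0346% lower. The largest of these log2 changes in size was 0.26 for Casp4 (SE 0.124, adjusted p = 0.508), followed by -0.25 for Gsdmd (SE 0.176, adjusted p = 0.594).

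For irradiation, the 3 states served as replicates with polarization as a term, which left 2 residual degrees of freedom. This assumes the same effect in every state. Differences between states enter the residual spread, so an effect in 1 state only can go undetected. None of the 6 genes passed edgeR's quasi-likelihood test at an adjusted p of 0.05, beside 0.475% of all genes (0.346% higher, 0.13% lower), and DESeq2 called 0. Unadjusted, 2 genes had a p under 0.05. Nlrp3 had a log2 change of 0.40 (SE 0.165, adjusted p = 0.300) and Casp1 had -0.34 (SE 0.14, adjusted p = 0.298). For both, the intervals of the M0 and M1 states given above lay on 1 side of 0 and that of RM2 against M2 included 0, where Nlrp3 was at -0.01 with library totals. Without the M0 library the effect of Nlrp3 was 0.51, and without M1 or RM1 it was 0.12. Each of these fits leaves 1 library alone in its state, which then adds nothing to the effect. Only the effect sizes are therefore given. Nlrc4 was at 0.33 (SE 0.176, adjusted p = 0.408), Gsdmd at -0.20 (adjusted p = 0.522), Casp4 at -0.05 (adjusted p = 0.840) and Aim2 at -0.01 (adjusted p = 0.983).

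Around these genes, 61 others of the pathway were examined in 7 lists, of which 48 could be called in M1 against M0, 19 of them higher and 3 lower, beside 8.98% and 13.7% of all genes. In RM1 against M1, 3 of 48 were higher and 9 lower, beside 3.23% and 2.09%. These comparisons share the M1 library. The lists were chosen with earlier results of these data known, so the shares are descriptive and show no enrichment. In RM0 against M0, 1 of 46 was higher, beside 0.727%, and in RM2 against M2, 0 of 45 were called, beside 1.97%. In the fit of all libraries, 24 of 46 rose and 7 fell with LPS and IFN-γ, beside 23.3% and 24.3% of all genes, and 1 rose and 1 fell with irradiation, beside 0.346% and 0.13%.

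Among the cytokines that the pathway matures or releases, Il1a and Il18 were called higher in M1 against M0 and 0 of 3 were lower. Over all genes, 8.98% were higher and 13.7% lower. Il1a, a cytokine released from dying cells, had 57 counts in M0 and 627 in M1 (3.81, 3.47 to 4.28), with 6.72% of its 100-base windows shared with an overlapping gene. Il18, which needs cleavage by caspase-1, had 432 and 826, at 1.33 (1.16 to 1.51). Il1b, the main cytokine substrate of caspase-1, held 2638 reads for M0, 2819 for M1 and 1700 for M2, and after irradiation 4136 for RM0, 6624 for RM1 and 2601 for RM2. Every irradiated library thus held more Il1b reads than its non-irradiated counterpart, by 0.67 (0.598 to 0.74) for the M0 state, 1.09 (1.03 to 1.16) for M1 and 0.65 (0.558 to 0.736) for M2 as log2 fold change. Il1b rose with irradiation by 0.79 in the fit of all libraries (SE 0.112, edgeR adjusted p = 0.0146) and was higher in 3 of 3 states. The effect was 0.66 to 0.87 with libraries or states left out. It did not pass with library totals (0.80, adjusted p = 0.117) or without the polarization term (0.86, adjusted p = 1.00).

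Of 10 further sensor genes, 1 was at 0 in all libraries and 7 could be called. In M1 against M0, 1 of the 7 was higher and 2 were lower, beside 8.98% and 13.7% of all genes. Zbp1, a sensor of Z-form nucleic acids that can engage NLRP3, was called higher in M1, with 293 counts in M0 and 3251 in M1 (log2 fold change 3.86, 3.70 to 4.05). Nlrp1b, which senses protease activity, was lower, with 240 and 54 counts (-1.72, -2.21 to -1.32), and Nlrp10 was lower, with 130 and 7 (-3.54, -5.16 to -2.73). In RM1, Nlrp10 had 19 counts, called higher than M1 at 1.13, with an interval from -0.0134 to 2.79 that includes 0. Over all genes, 3.23% were called higher in RM1 against M1. Since Nlrp10 was under 10 counts in M1, its calls against M1 could go in 1 direction only. The median of the 7 sensors was -0.41 beside -0.05 over all genes. Naip2, the most abundant of the NAIP genes, had 1160 counts in M0 and 663 in M1. The Naip genes share 4.55% to 16.2% of their 100-base windows with each other or with related copies, so their counts are uncertain. In M2 against M0, Naip1 (6 counts against 16) and the regulator Gbp2 (35 against 86) were called lower, beside 0.442% of all genes. Naip1 was under 10 counts in M2 and could be called there in 1 direction only.

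Of 9 genes for other gasdermins and membrane rupture, 2 passed 10 counts in M1 against M0. Gsdme, which encodes another pore-forming gasdermin, had 85 counts in M0 and 22 in M1 (-1.48, -2.30 to -0.861), and Ninj1, needed for the final rupture of the membrane, had 1602 and 1874 and was not called. The Gsdma and Gsdmc families stayed at 9 counts or fewer. Gsdmd was thus the gasdermin gene with the highest count in each of the 6 libraries.

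Among 15 regulators of NLRP3 and of the caspase-11 pathway, 8 were called higher in M1 against M0 and 0 lower. Over all genes, 8.98% were higher and 13.7% lower. The median of the 15 was 2.46 beside -0.05 over all genes. The largest differences were those of guanylate-binding protein genes, which encode GTPases that help to expose LPS to caspase-11. Gbp5 had 14 counts in M0 and 2872 in M1 (7.88, 7.33 to 8.95), Gbp2b 53 and 4580 (6.78, 6.44 to 7.25) and Gbp2 86 and 6032 (6.50, 6.22 to 6.86). The smallest among the 8 were those of Irf8, at 2.46, Gbp7, at 3.28, and Irgb10, at 4.12 with 2 counts in M0 (3.20 to 8.21). In RM1 against M1, 7 of 15 were called lower and 0 higher, beside 2.09% and 3.23% of all genes. Gbp2 had 6032 counts in M1 and 726 in RM1 (-3.19, -3.31 to -3.08), and Irgb10 had 53 and 5 (-3.15, -5.23 to -2.23). Irgb10 reached 10 counts only in M1, so each of its calls could go in 1 direction only. The gene of the transcription factor Irf1, named after its values were seen, held 419 reads for M0, 8628 for M1 and 405 for M2, and after irradiation 404 for RM0, 1710 for RM1 and 343 for RM2. Gbp5 fell by 2.69 with irradiation in the fit of all libraries (SE 0.361, edgeR adjusted p = 0.012), with 12 counts in RM0, 385 in RM1 and 5 in RM2 against 14, 2872 and 7. It was at -0.28 without M1 and without RM1, so this call rested on those libraries. Gbp5 did not pass with library totals (adjusted p = 0.123), without the polarization term (adjusted p = 1.00) or by DESeq2 (adjusted p = 0.712). The Gbp7 transcript shares 10.2% of its windows with other genes, mainly Gbp3, and Txnip 15.1% with an overlapping gene, so their counts are less certain. Txnip, an NLRP3 binding partner, had 42098 counts in M0 and 27213 in M1 and was not called, and Nek7, needed for NLRP3 assembly, had 900 and 796.

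Among 11 inhibitors and antagonists, 6 of 9 were called higher in M1 against M0 and 0 lower, with a median of 1.90. Over all genes, 8.98% were higher and 13.7% lower, with a median of -0.05. Il18bp, the decoy that binds IL-18, had 10 counts in M0 and 464 in M1 (5.66, 5.04 to 7.01). Il1rn, the antagonist of the IL-1 receptor, had 24390 and 85639 (2.21, 2.19 to 2.23). Tnfaip3, which encodes the ubiquitin-editing enzyme A20, was at 2.77, Trim30a, with 4.79% of its windows shared with Trim30d, at 1.65, and Pydc3 at 5.39 with 4 counts in M0. As Pydc3 was under 10 counts in M0, it could be called there in 1 direction only. In RM1 against M1, Il18bp was at -2.47 and Pydc3 at -1.16, both called lower, beside 2.09% of all genes. Serpinb1a, an inhibitor of neutrophil proteases and inflammatory caspases, was called higher in RM1 (72 counts against 30, 1.08, 0.489 to 1.79) and in RM0 (28 against 9, 1.45, 0.533 to 2.93), with 16 in RM2 and 17 in M2. Over all genes, 3.23% were higher in RM1 against M1 and 0.727% in RM0 against M0. With under 10 counts in M0, Serpinb1a could be called against M0 in 1 direction only. Its irradiation effect of 0.92 did not pass in the fit of all libraries (SE 0.337, edgeR adjusted p = 0.252).

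Genes of the neighbouring death pathways were measured as well. Of 8 apoptotic and necroptotic genes, 2 were called higher in M1 against M0 and 0 lower, beside 8.98% and 13.7% of all genes. Of these, Mlkl, the pore-forming effector of necroptosis, had 829 counts in M0 and 1447 in M1, at 1.20 (1.08 to 1.33). In the fit of all libraries, 3 of 7 genes rose and 3 fell with LPS and IFN-γ, where 23.3% of all genes rose and 24.3% fell. Mlkl rose by 1.09 (SE 0.136, edgeR adjusted p = 0.000119). Those that fell were Fadd, Ripk1 and Ripk3, a kinase that activates MLKL, with Ripk3 at -0.62 (SE 0.118, adjusted p = 0.00155). Of the 5 genes of ESCRT-III membrane repair, which removes gasdermin pores, 0 were called in M1 against M0, beside 22.7% of all genes. In the fit of all libraries 4 of them rose, beside the same 23.3% of all genes, with Chmp2a at 0.82 (SE 0.12, edgeR adjusted p = 0.000341). None of the 12 genes of these last lists that could be called was called after irradiation in any state. Over all genes, 1.54% were called in RM0 against M0, 5.32% in RM1 against M1 and 1.97% in RM2 against M2.

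**Figure D4:**
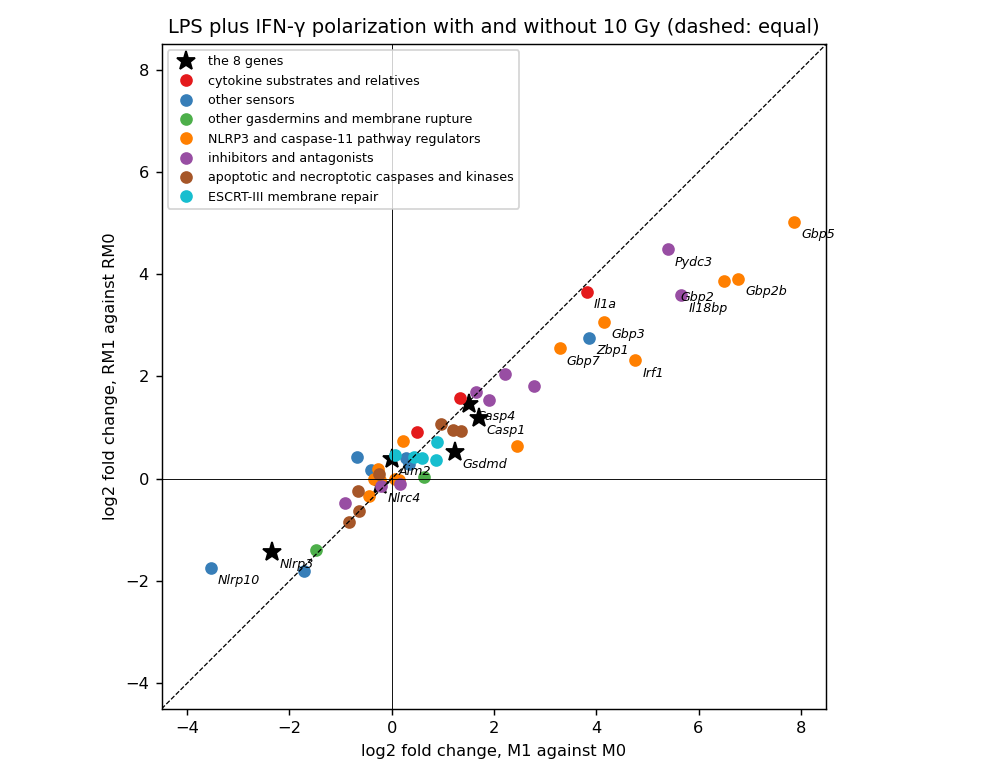
log2 fold changes of M1 against M0 (x axis) and of RM1 against RM0 (y axis) for the 53 genes with at least 10 counts in both comparisons, which share no library, coloured by list with stars for the inflammasome and pyroptosis genes and a dashed line of equality. Casp4 lies close to the line at 1.52 and 1.47, Casp1 at 1.71 and 1.18, and Gbp5 at 7.88 and 5.01.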

How the data were processed

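RNA-seq of 6 RAW264.7 conditions was analysed. The values deposited by the authors are whole-number counts from HTSeq, not normalized, for 24062 RefSeq genes. Their processing notes name Trimmomatic 0.36, HISAT2 2.2.1, HTSeq 0.11.3 and mm10; the strand setting is not given in the sources used here. From these counts, TMM factors, log2 fold changes (prior count of 2) and quasi-likelihood tests (at least 10 counts in at least 3 libraries) were computed with edgeR 4.0.16 in R 4.3.3, with DESeq2 1.42.0 as an alternative. Standard errors of the tests were taken from the fold change and its F statistic. Single-gene intervals between 2 libraries are exact Clopper-Pearson intervals at 95%. These, the Poisson intervals and the limit of 3 counts cover counting error only. Python 3.11.15 with scipy 1.17.1 was used for the rest. Transcript lengths came from GENCODE M21.

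Depth was 17894937 to 18870516 counts per library. Each irradiated library was compared with its state, and M1 and M2 with M0, also among irradiated cells. The genes and lists were chosen with earlier results of these data known. From each list the text names at most the 3 largest and 3 smallest calls in M1 against M0 and 2 in each direction after irradiation, and other genes named were chosen after their values were seen. Alternatives were library totals, DESeq2 factors or test, a prior count of 0.25, other count minimums, 1.5-fold and 4-fold thresholds, models without a term, and libraries left out. The statistics were tested on simulated data. Older symbols in the tables (Dfna5, Gm12250, Emr1) were matched to Gsdme, Irgb10 and Adgre1 through RefSeq synonyms, and Ly6g was not matched. The values of some listed or neighbouring genes are not reported here.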

Additional observations from a re-analysis of the deposited data

Results flagged for a closer look

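Aim2 moved in opposite directions after irradiation in different states. It was higher in RM2 than in M2, at a log2 fold change of 0.28 (95% counting interval 0.176 to 0.382), and lower in RM0 than in M0, at -0.33 (-0.439 to -0.216). For the same reason its comparison with IL-4 differed, at 0.49 (0.383 to 0.601) in RM2 against RM0 and -0.11 (-0.22 to -0.0079) in M2 against M0. The same 4 libraries give both pairs of values. These differences were not tested, since each condition has 1 library, and none of the 4 values reached 2-fold.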

How the results depend on the processing

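No paired analysis was possible because each condition has 1 library and so no replicate numbers to pair, apart from the irradiation fit itself, in which the polarization term makes each state a pair of libraries. Without that term 0 of the inflammasome genes passed, as with it. Of 469 values recomputed under the alternatives, 424 counted as unchanged. Fold changes counted so within their counting interval, and test effects if they kept their sign and side of the threshold. Numbers of genes counted so within a ratio of 1.5. With library totals, 3 genes instead of 4 in M1 against M0 and 2 instead of 3 in RM1 against RM0 thus counted so. Some were fixed in advance, since 0 calls at 2-fold stay 0 at 4-fold and Pycard, with 0 counts, cannot move. The number of genes called in M1 against M0 was 1 at 4-fold instead of 4. In RM1 against M1 it was 2 without a minimum count, where Mefv entered with 2 counts against 0, 0 at 4-fold and 3 at 1.5-fold, where Casp1 and Gsdmd entered, instead of 1. In RM1 against RM0 it was 0 at 4-fold instead of 3. With libraries or states left out, the irradiation effect of Nlrp3 ranged from 0.12 to 0.62. Numbers of genes passing with a library left out are not given, since this can leave 1 library alone in a state. Among the inflammasome genes, signs turned for effects that did not pass with all libraries. The irradiation effect of Aim2, -0.01, was 0.0061 with library totals, 0.0052 without a filter and 0.0063 without the polarization term, and -0.15 to 0.16 with libraries or states left out. Under the same omissions the irradiation effect ranged from -0.10 to 0.0031 for Casp4 and from -0.33 to 0.057 for Gsdmd. The effect of LPS and IFN-γ on Aim2 was -0.15 with library totals and -0.034 to 0.45 with libraries left out. That of IL-4 was -0.43 to 0.13 for Nlrp3, -0.15 to 0.35 for Casp1 and -0.035 to 0.44 for Aim2. Gbp5 was not tested without the M0 or the M1 state, where fewer than 3 of the remaining libraries reached 10 counts. Pycard was at 0 under every scaling. Depth limits Mefv, Nlrc4 and the low gasdermin genes, and the spread between cultures is unknown for all genes.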

Other observations

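Set against 10189 other genes whose counts averaged 50 or more, the genes whose log2 levels followed each inflammasome gene most closely over the 6 libraries, by the root mean square difference after centring each gene on its mean, were Nrp1 for Nlrp3 (0.082), Dtx3l for Casp1 (0.0909), Car13 for Casp4 (0.0689), Wdtc1 for Gsdmd (0.0497), Tmem126b for Aim2 (0.0513) and Rbl2 for Nlrc4 (0.0667). For Nlrp3 the next were Gtf2ird2 (0.103) and Gpr179 (0.108). For Casp4 they were Slfn8 (0.0736) and Rabgap1l (0.0783), and for Casp1 they were Hspa5 (0.10) and Pxmp2 (0.104). These values describe 6 libraries that share their scaling.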
